A study of Glycine max with 16 samples.

Results

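Transcripts of 5 soybean seed protein genes were followed through the end of seed maturation, in seeds from stressed and from non-stressed plants. The genes are CG-1 and CG-BETA-1, which encode conglycinin subunits, BG7S-1 and BG7S-2, which encode basic 7S globulins, and GM2S-1, which encodes a 2S albumin. They were taken by name, through the probe sets that the array's annotation pairs with exactly 1 of them, and they are 5 of 6031 genes that have such a probe set. There are 7 of these probe sets among 8677 soybean probe sets paired with 1 gene, and 6 of the 7 passed the signal filter described below.

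The samples were whole seeds, seed coat and embryo together, of cultivar MG/BR 46 (Conquista), which the study used as its susceptible cultivar for chlorophyll retention. All plants grew through the vegetative phase in a polytunnel with free water, at a mean of 24.7 °C. At stage R5.5 the stressed plants were moved into a greenhouse with a mean day temperature of 39.5 °C. There they got water only once they wilted, and the other plants stayed in non-stressed conditions. Seeds were picked at R6 (full seed), R7 (beginning maturity) and R8 (full maturity), with 3 arrays of stressed seeds for each stage, and of non-stressed seeds 3 for R6, 2 for R7 and 2 for R8. Heat, drought and growing place differed together between the environments and cannot be told apart, only 1 cultivar was hybridized, and each sample pooled the seeds of a pair of pots after a selection by seed colour. All values are log2 signals of an Affymetrix Soybean Genome array, on which 1 unit is a 2-fold difference. Signals of different probe sets were not read as relative amounts of transcript, since each binds with its own strength.

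Seed storage proteins hold the nitrogen and sulfur that a seedling draws on. In soybean they are made in the embryo during seed filling, enter the endoplasmic reticulum and are packed into protein storage vacuoles. Conglycinins are 7S globulins that assemble as trimers and share most of the seed's protein with the 11S glycinins, 2S albumins are small sulfur-rich proteins, and basic 7S globulins are a separate cysteine-rich family that is released from soybean seeds in hot water. Their transcripts rise in mid-maturation under seed-specific transcription factors and abscisic acid, and they are cleared as the seed dries.

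A probe set was tested where its mean log2 signal was above 3 in at least 1 of the 6 groups, which kept 19194 of 37593 soybean probe sets. A call, higher or lower, took a difference of at least 1 on the log2 scale and a p-value by limma that stayed at 0.05 or less after Benjamini-Hochberg adjustment. Background was read from the array's probe sets for other organisms, with medians of 0.20 to 0.33 on the arrays, and 1.17, their 98th percentile, is taken here as its limit. The arrays resembled others of their group with mean correlations of 0.976 to 0.996, except for stressed R6 replicate 3, at 0.958. The 18S rRNA control stood at 6.32 and 8.34 on the non-stressed R7 arrays and at 9.43 to 11.10 on all others. Embryo markers (SACPD-C, FAD2-1A and P34, 3 of 3 measured) were above background in all 6 groups. Of 5 seed coat markers with a probe set ANR1 was at background in all 6 groups, SCB1 and LAR1 were at background at R7 and R8, Ep was so in 3 of the 4 groups of those stages, and HPS was above it in each group.

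At R6 the 5 genes had nearly the same signals in stressed and in non-stressed seeds. CG-1 read 6.48, 6.50 and 5.38 in stressed R6 seeds, against 6.54, 6.54 and 6.70 in non-stressed R6 seeds. Its lowest value comes from the stressed array that correlated least with its group, and without that array the difference of -0.48 (95% interval -1.03 to 0.08) became -0.11. CG-BETA-1, a beta subunit of conglycinin, read 11.87, 12.01 and 11.75 in stressed R6 seeds, against 12.04, 11.93 and 12.06 in non-stressed R6 seeds, so that the groups overlapped. BG7S-1 read 12.16, 12.21 and 12.12 in stressed R6 seeds, against 12.10, 12.06 and 12.08 in non-stressed R6 seeds. BG7S-2 read 11.35, 11.42 and 11.55 in stressed R6 seeds, against 11.57, 11.65 and 11.60 in non-stressed R6 seeds. These paralogues did not overlap between the environments, but their differences were 0.09 and -0.16 and lay within the error of the fit. GM2S-1 read 12.36, 12.41 and 12.38 in stressed R6 seeds, against 12.40, 12.32 and 12.42 in non-stressed R6 seeds, and its groups overlapped.

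None of the 5 genes was called at R6, where 14.9% of all probe sets tested were called in either direction and 10897 of 19194 reached 0.05 by limma before adjustment. The 5 differences ran from -0.48 to 0.09, and the 95% interval of GM2S-1 was the narrowest, -0.17 to 0.18. The R6 signals of CG-BETA-1, BG7S-1, BG7S-2 and GM2S-1, at 11.44 to 12.38 on average, stood near the array maximum of 12.76 to 13.28, where a difference can go unseen. The same holds for BG7S-1, BG7S-2 and CG-BETA-1 in non-stressed R7 seeds (12.23, 11.74 and 11.44) and for BG7S-1 in stressed R8 seeds (11.75), so that their stress differences at those stages may be understated. The summed seed coat markers did differ at R6, at 5.86 to 6.67 in stressed R6 seeds, against 9.25 to 9.84 in non-stressed R6 seeds, with 3 of 4 measured lower and Ep higher. The embryo markers gave summed log2 signals of 13.20 to 13.33 in stressed R6 seeds and 13.23 to 13.29 in non-stressed R6 seeds, and 0 of 3 were called. Of these, FAD2-1A and P34, with R6 means of 11.85 to 12.11, also stood near the array maximum.

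**Figure D1:**
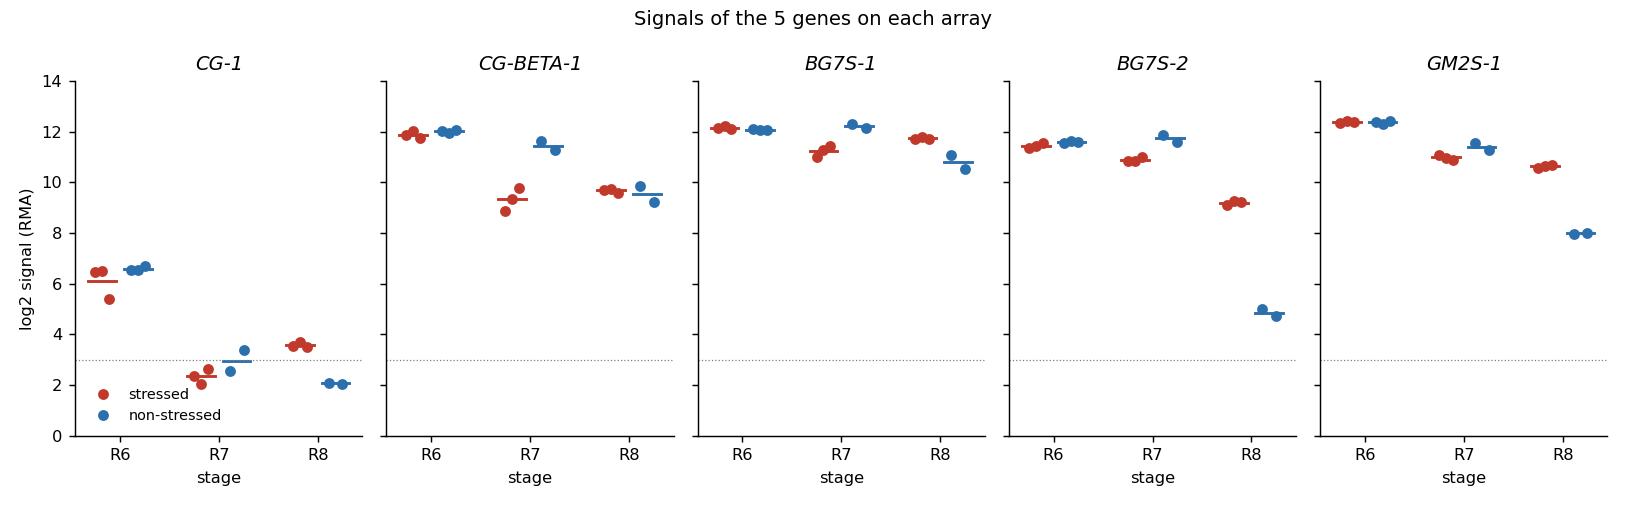
Log2 signal of each of the 5 genes on every array (y axis), by stage on the x axis, with stressed seeds in red and non-stressed seeds in blue. Points are arrays, short lines are group means and the dotted line is the filter value of 3. BG7S-2 and GM2S-1 separate between the environments most widely at R8, and CG-BETA-1 does so at R7.

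At R7 stressed seeds had lower signals of 2 of the 5 genes, in a comparison where 11.9% of all probe sets tested were called lower. CG-BETA-1 read 8.86, 9.35 and 9.78 in stressed R7 seeds, against 11.63 and 11.26 in non-stressed R7 seeds. All 3 stressed arrays lay below both non-stressed arrays, and the gene fell by 2.12 on the log2 scale in stressed seeds (4.34-fold lower, standard error 0.23, adjusted p = 3.6e-05 by limma). BG7S-1 read 10.99, 11.26 and 11.42 in stressed R7 seeds, against 12.32 and 12.14 in non-stressed R7 seeds. These groups did not overlap either, and BG7S-1 fell by 1.01 in stressed seeds (2.01-fold lower, standard error 0.16, adjusted p = 3.1e-04 by limma). That fall sits at the 2-fold limit, and BG7S-1 was not called without stressed R7 replicate 1 (-0.89), without non-stressed R7 replicate 1 (-0.92) or with array medians set equal (-0.90). Without stressed R7 replicate 1 or with medians set equal CG-BETA-1 was thus the 1 gene called, while without non-stressed R7 replicate 1 CG-1 passed in place of BG7S-1.

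The other 3 genes were not called at R7. BG7S-2 read 10.84, 10.85 and 11 in stressed R7 seeds, against 11.87 and 11.61 in non-stressed R7 seeds. The groups were apart and the adjusted p was 2.2e-04 by limma, but the difference of -0.84 was under the 2-fold limit. GM2S-1 read 11.09, 10.97 and 10.90 in stressed R7 seeds, against 11.54 and 11.27 in non-stressed R7 seeds, a difference of -0.42 without overlap (adjusted p = 0.00631 by limma). CG-1 read 2.36, 2.05 and 2.65 in stressed R7 seeds, against 2.56 and 3.38 in non-stressed R7 seeds. Its groups overlapped at low signals (difference -0.61, adjusted p = 0.11 by limma), and without non-stressed R7 replicate 1 the difference was -1.02 and passed (adjusted p = 0.0378), while without non-stressed R7 replicate 2 it was -0.20.

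Several other measures also differed between the environments at R7. The embryo markers summed to log2 signals of 10.33 to 10.58 in stressed R7 seeds and to 11.62 to 11.94 in non-stressed R7 seeds. Of the 3, only 1, P34, was called lower (-1.82), while FAD2-1A (-0.91) and SACPD-C (-0.07) were not called. The seed coat markers summed to 3.39 to 3.71 in stressed R7 seeds and to 4.04 to 4.06 in non-stressed R7 seeds, and 0 of 4 were called. HPS, which was above background in both R7 groups, had a difference of -0.73 (adjusted p = 0.039 by limma). The rRNA control differed as given above. The sucrose binding protein control was read as the excess of its 3′ over its 5′ end. This was 5.44 ± 0.38 on the stressed R7 arrays and 6.24 ± 0.95 on the non-stressed R7 arrays (SD, n = 3 and 2). Here the arrays overlapped, at 5.11 to 5.85 in stressed and 5.57 to 6.91 in non-stressed R7 seeds. The part of these measures in the R7 results was not tested. The study itself described its R7 samples as mixed in maturity. In whole seeds, fewer cells that make a transcript and less transcript per cell cannot be told apart.

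At R8 the called differences ran the other way, and 3 of the 5 genes were higher in stressed seeds, where 6.01% of all probe sets tested were called higher. BG7S-2 read 9.09, 9.28 and 9.24 in stressed R8 seeds, against 4.99 and 4.73 in non-stressed R8 seeds. Every stressed array was more than 4 units above both non-stressed arrays, and the difference was 4.34 (20.2-fold, standard error 0.12, 95% interval 4.08 to 4.60, adjusted p = 1.1e-08 by limma). It was the 18th highest of the 19194 differences at this stage. GM2S-1 read 10.58, 10.65 and 10.67 in stressed R8 seeds, against 7.96 and 8.01 in non-stressed R8 seeds. The groups lay far apart, with a difference of 2.65 (6.28-fold, standard error 0.09, adjusted p = 5.1e-08 by limma), the 116th highest.

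CG-1 was called at R8 as well. This gene, for the alpha′ subunit of conglycinin, read 3.53, 3.71 and 3.49 in stressed R8 seeds, against 2.10 and 2.05 in non-stressed R8 seeds. These signals are low but above background, the groups did not overlap, and the difference was 1.50 (2.83-fold, standard error 0.28, adjusted p = 0.00253 by limma). With the mean of both its probe sets it was 0.85 and under the 2-fold limit, and the second of them was at background in 5 of 6 groups (means of 0.60 to 0.97) and at 1.18 in stressed R6 seeds.

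The remaining pair was not called at R8. BG7S-1 read 11.73, 11.79 and 11.73 in stressed R8 seeds, against 11.10 and 10.53 in non-stressed R8 seeds. It did not overlap between the environments, and its difference of 0.93 (1.91-fold, adjusted p = 8.7e-04 by limma) was just under the 2-fold limit. It passed with a further quantile normalization (1.01) and without non-stressed R8 replicate 1 (1.22). CG-BETA-1 read 9.71, 9.74 and 9.60 in stressed R8 seeds, against 9.85 and 9.24 in non-stressed R8 seeds. Its groups overlapped, and the difference of 0.14 had a 95% interval of -0.22 to 0.50.

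Embryo markers moved in the same direction at R8, with summed log2 signals of 10.41 to 10.59 in stressed R8 seeds and 8.40 to 8.88 in non-stressed R8 seeds, and 3 of 3 called higher. The summed seed coat markers were 2.93 to 3.21 in stressed R8 seeds and 2.92 to 3.00 in non-stressed R8 seeds, and 0 of 4 were called. The 3′ excess of the sucrose binding protein control was 4.09 ± 0.19 on the stressed R8 arrays and 4.12 ± 0.25 on the non-stressed R8 arrays (SD, n = 3 and 2). The 3′ excess of the actin control did not overlap, at 4.73 to 5.08 in stressed and 4.38 to 4.57 in non-stressed R8 seeds, and at 5.41 to 5.67 in stressed and 4.96 to 5.03 in non-stressed R7 seeds, but its 5′ probe set was at background on average in all 6 groups (means of 0.06 to 1.13). The 18S rRNA control was 9.43 to 10.15 in stressed R8 seeds and 10.85 to 10.99 in non-stressed R8 seeds. The part of the embryo markers and of these controls in the R8 differences was not tested.

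**Figure D2:**
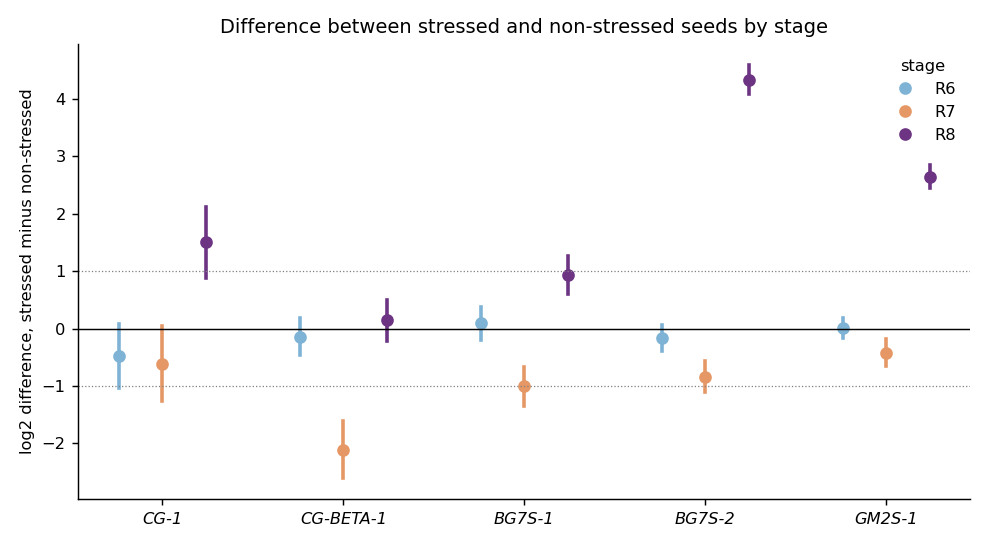
Log2 difference between stressed and non-stressed seeds (y axis) for each gene at R6, R7 and R8, with 95% intervals from limma as bars. Dotted lines mark a 2-fold difference, which CG-BETA-1 passed downward at R7 and BG7S-2, GM2S-1 and CG-1 passed upward at R8, while BG7S-1 at R7 lay on it.

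Whether the response to stress differed between stages was tested as the difference of the differences. Set against R6, the response at R8 was higher for 3 of the 5 genes, where 11.4% of all probe sets tested were called higher. These were BG7S-2 (4.50, standard error 0.16, adjusted p = 2.1e-07 by limma), GM2S-1 (2.65, standard error 0.12, adjusted p = 5.1e-07) and CG-1 (1.98, standard error 0.38, adjusted p = 0.00223). With the mean of both its probe sets CG-1 was at 0.93 there and was not called. BG7S-1, at 0.85 (adjusted p = 0.00628 by limma), was under the 2-fold limit, and its size was 1.13 without non-stressed R8 replicate 1. CG-BETA-1 (0.28) was not called. Set against R6, the response at R7 was lower for CG-BETA-1 (-1.98, adjusted p = 1.4e-04 by limma) and BG7S-1 (-1.10, adjusted p = 7.0e-04), in a comparison where 21.8% of all probe sets tested were called lower. BG7S-1 fell under the limit there without stressed R7 replicate 1 (-0.98) and with medians set equal (-0.99), which left 1 gene called.

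Between R8 and R7 the response was higher at R8 for all 5 genes, where 14.1% of all probe sets tested were called higher. The size was 5.18 for BG7S-2, 3.07 for GM2S-1, 2.26 for CG-BETA-1, 2.11 for CG-1 and 1.94 for BG7S-1, with adjusted p-values by limma of 1.2e-09 to 0.00224. This held for each gene under every alternative tried. The 5 genes reached it in different ways. For CG-BETA-1 the R7 arrays were apart and the R8 arrays overlapped, for BG7S-2, GM2S-1 and CG-1 the larger difference was the one at R8, and for BG7S-1 differences of similar size, -1.01 and 0.93, stood on opposite sides of 0. The 3 sets of differences share arrays and are no independent evidence for each other.

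The stages were also compared within each environment. In non-stressed seeds all 5 genes were lower at R8 than at R6, where 30.3% of all probe sets tested were called lower. BG7S-2 fell by 6.74 units (107-fold), with means of 4.86 at R8 and 11.61 at R6, and GM2S-1 fell by 4.39, with means of 7.98 at R8 and 12.38 at R6. CG-1 fell by 4.52, CG-BETA-1 fell by 2.47 and BG7S-1 fell by 1.26 (adjusted p-values by limma of 2.7e-11 to 1.0e-05 over the 5 genes). The fall of BG7S-1 was under the 2-fold limit without non-stressed R8 replicate 2 (-0.98) and with medians set equal (-0.93).

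In stressed seeds 4 of the 5 genes were lower at R8 than at R6, where 27.1% of all probe sets tested were called lower. CG-1 fell by 2.54, BG7S-2 fell by 2.24, CG-BETA-1 fell by 2.19 and GM2S-1 fell by 1.75 (adjusted p-values by limma of 1.1e-08 to 3.5e-06). BG7S-1 stood at 11.75 ± 0.03 at R8 and 12.17 ± 0.05 at R6 (SD, n = 3 each), a difference of -0.42 that was not called. BG7S-2 thus had a 4.72-fold lower signal at R8 than at R6 in stressed seeds, beside 107-fold in non-stressed seeds, while for CG-BETA-1 the folds were 4.57 and 5.54.

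Other measures moved with stage as well. In stressed seeds the embryo markers summed to log2 signals of 10.41 to 10.59 at R8 and 13.20 to 13.33 at R6, and the seed coat markers to 2.93 to 3.21 at R8 and 5.86 to 6.67 at R6. In non-stressed seeds the embryo markers summed to 8.40 to 8.88 at R8 and 13.23 to 13.29 at R6, and the seed coat markers to 2.92 to 3.00 at R8 and 9.25 to 9.84 at R6. The 3′ end of the sucrose binding protein control exceeded its middle by 2.20 to 2.31 at R8 and 0.75 to 1.28 at R6 in stressed seeds, and by 2.26 to 2.53 at R8 and 0.41 to 0.53 at R6 in non-stressed seeds. The median over soybean probe sets was 1.71 to 1.77 on the R8 arrays and 1.98 to 2.11 on the R6 arrays. The part of these measures in the differences between stages was not tested.

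**Figure D3:**
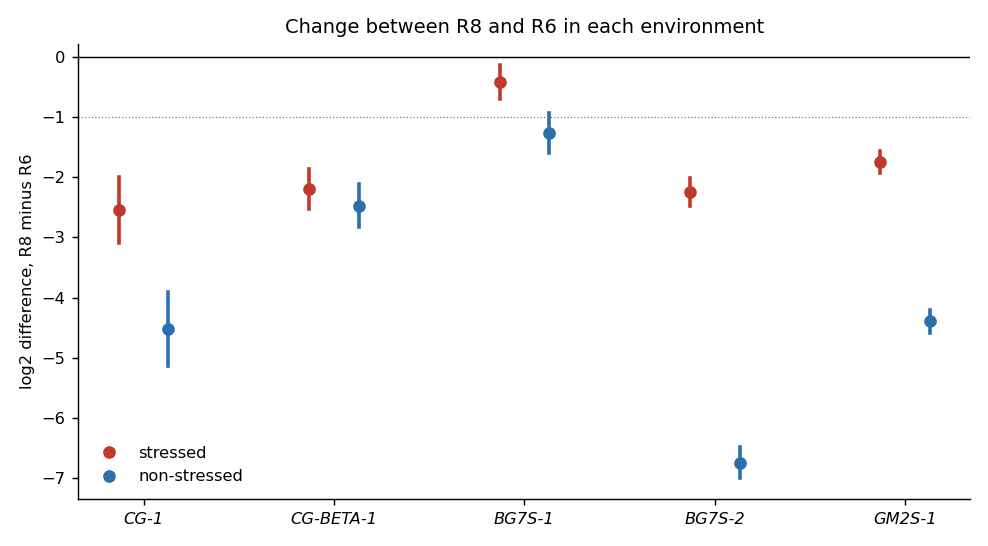
Log2 difference between R8 and R6 seeds (y axis) for each gene, in stressed seeds (red) and non-stressed seeds (blue), with 95% intervals from limma as bars. All values lie below 0, the intervals of the environments overlap for CG-BETA-1, and the widest separation is that of BG7S-2, with -2.24 in stressed seeds and -6.74 in non-stressed seeds.

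The steps between neighbouring stages were read within each environment as well. A gene called in 1 environment only need not differ between the environments. By the test of the difference given above, the step from R6 to R7 was called different for CG-BETA-1 and, near the limit, BG7S-1. BG7S-2 (-0.68, adjusted p = 0.0036 by limma) and GM2S-1 (-0.43, adjusted p = 0.0225) passed on p and missed only the 2-fold limit. The step from R7 to R8 differed for all 5 genes. In stressed seeds 3 of the 5 genes were already lower at R7 than at R6, where 20.0% of all probe sets tested were called lower. These were CG-1 (fell by 3.76), CG-BETA-1 (fell by 2.55) and GM2S-1 (fell by 1.40). BG7S-1, at -0.94, was just under the 2-fold limit and passed without stressed R7 replicate 3 (-1.05), which made 4 genes. In non-stressed seeds 1 gene, CG-1, was lower at R7 than at R6 (fell by 3.63), where 23.2% of all probe sets tested were called lower. BG7S-1 and BG7S-2 had means of 12.23 and 11.74 in non-stressed R7 seeds and 12.08 and 11.61 in non-stressed R6 seeds, differences of 0.15 and 0.13 that were within the error. GM2S-1, at -0.97, was just under the 2-fold limit, and it passed without non-stressed R7 replicate 1 (-1.11) or, at the limit, without non-stressed R6 replicate 2. The mean of both probe sets of CG-BETA-1 also passed (-1.04), so that 2 genes were called under each of these settings.

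Between R8 and R7, 4 of the 5 genes were lower at R8 in non-stressed seeds, where 17.7% of all probe sets tested were called lower. BG7S-2 fell by 6.88 (117-fold, adjusted p = 1.7e-12 by limma), the fourth lowest of the 19194 differences, and GM2S-1 fell by 3.42, CG-BETA-1 fell by 1.90 and BG7S-1 fell by 1.42. CG-1 had a difference of -0.90, which was not called with all arrays, and of -1.31 without non-stressed R7 replicate 1, which was. In stressed seeds BG7S-2 alone of the 5 was lower at R8 than at R7 (fell by 1.70), where 17.5% of all probe sets tested were called lower. CG-1 was higher at R8 than at R7 in stressed seeds, by 1.22 (adjusted p = 0.0012 by limma), where 19.4% of all probe sets tested were called higher, but with the mean of its probe sets the difference was 0.79 and BG7S-2 was the 1 gene called. GM2S-1 (-0.35), CG-BETA-1 (0.36) and BG7S-1 (0.53) were not called there.

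Ordered by mean signal over the groups, each gene had its own ladder, here with neighbours told apart by the adjusted p alone. BG7S-2 had non-stressed R7 (11.74), non-stressed R6 (11.61) and stressed R6 (11.44) at the top, where neighbours were not told apart, and then stressed R7 (10.90), stressed R8 (9.20) and non-stressed R8 (4.86), each of which differed from the one above it. GM2S-1 began with both R6 groups at 12.38 and went on with non-stressed R7 (11.41), stressed R7 (10.99), stressed R8 (10.64) and non-stressed R8 (7.98), with each step after R6 told apart. BG7S-1 had non-stressed R7 (12.23), stressed R6 (12.17) and non-stressed R6 (12.08) together at the top, then stressed R8 (11.75), stressed R7 (11.22) and non-stressed R8 (10.82), again with each step told apart. The step down to stressed R8 was 0.33 (adjusted p = 0.0433 by limma). The last step was 0.41 (adjusted p = 0.0333 by limma), and its arrays overlapped. Non-stressed R8 had the lowest mean of all 3 of these genes.

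For the conglycinin genes fewer neighbours were told apart. CG-BETA-1 was high in non-stressed R6 (12.01), stressed R6 (11.88) and non-stressed R7 seeds (11.44) and low in stressed R8 (9.68), non-stressed R8 (9.54) and stressed R7 seeds (9.33), with no neighbours told apart within either set. Non-stressed R7 and non-stressed R6 seeds, which are not neighbours, did differ (-0.57, adjusted p = 0.036 by limma). CG-1 was high in non-stressed R6 (6.59) and stressed R6 seeds (6.12), and the other groups followed at 3.57 in stressed R8, 2.97 in non-stressed R7, 2.36 in stressed R7 and 2.07 in non-stressed R8 seeds, where neighbours were not told apart. Within these 4 groups stressed R8 seeds did differ from stressed R7 and non-stressed R8 seeds, which are not next to them in the order. Non-stressed R8 seeds also differed from non-stressed R7 seeds, again not neighbours (-0.90, adjusted p = 0.0329 by limma). Stressed R7 seeds had the lowest mean of CG-BETA-1, not told apart from that of non-stressed R8 seeds, while non-stressed R8 seeds had the lowest mean of the other 4 genes.

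Further probe sets bear on the conglycinin values. The second probe set of CG-BETA-1 averaged 7.17 ± 0.38 on the stressed and 10.15 ± 0.30 on the non-stressed R7 arrays (SD, n = 3 and 2), and it fell by 2.98 in stressed seeds (adjusted p = 1.7e-05 by limma). At R8 it averaged 8.18 ± 0.13 on the stressed and 7.70 ± 0.71 on the non-stressed arrays (SD, n = 3 and 2), which was not called (0.49). Both probe sets of the gene thus had the same calls under stress, and over the 16 arrays they followed each other with a Pearson r of 0.983. Between stages their calls did not always match. The second was lower at R7 than at R6 in non-stressed seeds (-1.52, adjusted p = 1.9e-04 by limma). It was higher at R8 than at R7 in stressed seeds (1.02, adjusted p = 0.00213 by limma). The first was not called in either comparison (-0.57 and 0.36).

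A further probe set is paired with CG-1 and CG-3 together and belongs to neither alone, and it was looked at after its values were seen. It averaged 10.90 ± 0.22 on the stressed and 11.95 ± 0.12 on the non-stressed R7 arrays (SD, n = 3 and 2), and it fell by 1.05 in stressed seeds. At R8 it averaged 11.48 ± 0.05 on the stressed and 10.29 ± 0.10 on the non-stressed arrays, and was higher by 1.19 in stressed seeds. At R6 its difference was -0.12. Its stage changes from R6 were smaller than those of CG-1. At R7 against R6 they were -0.85 (not called) in non-stressed and -1.79 in stressed seeds, against -3.63 and -3.76 for CG-1. At R8 against R6 they were -2.51 and -1.2 in the same order, against -4.52 and -2.54 for CG-1. At R8 against R7 in non-stressed seeds it changed more than CG-1 (-1.66 against -0.9). Its R6 means of 12.68 and 12.8 stood near the array maximum, so its changes from R6 may be understated. Conglycinin genes are near-identical in places, so signal of 1 gene can reach a probe set named for another. In the reference annotation CG-BETA-1, CG-BETA-2, LOC106794094 and CG-3 lie in that order on 1 chromosome, with 17, 1 and 0 annotated genes between successive ones. The last 3 have no probe set of their own among those paired with 1 gene, and their values are not given here.

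The signals of the basic 7S globulin paralogues parted at R8. Within each array, the log2 signal of BG7S-1 minus that of BG7S-2 was 0.73 ± 0.14 in stressed R6 seeds and 0.47 ± 0.05 in non-stressed R6 seeds (SD, n = 3 each). It was 0.32 ± 0.16 on the stressed and 0.49 ± 0.06 on the non-stressed R7 arrays, and 2.55 ± 0.08 on the stressed and 5.95 ± 0.22 on the non-stressed R8 arrays (SD, n = 3 and 2 at each stage). A gap that changes shows unequal change of the signals of the paralogues and gives no ratio of their transcripts. Both signals stood near the array maximum at R6 and in non-stressed R7 seeds, and that of BG7S-1 in stressed R8 seeds. A gap can go unseen or be understated there, and the part of this in the change of the gap was not tested. The R8 gap was smaller in stressed than in non-stressed seeds by 3.40 units, and the arrays did not overlap. The exact two-sided permutation test gave p = 0.2 there, the smallest its 10 splits allow, and the adjusted p over the 5 gap comparisons made was 0.2 for each, so this permutation test could not pass 0.05.

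**Figure D4:**
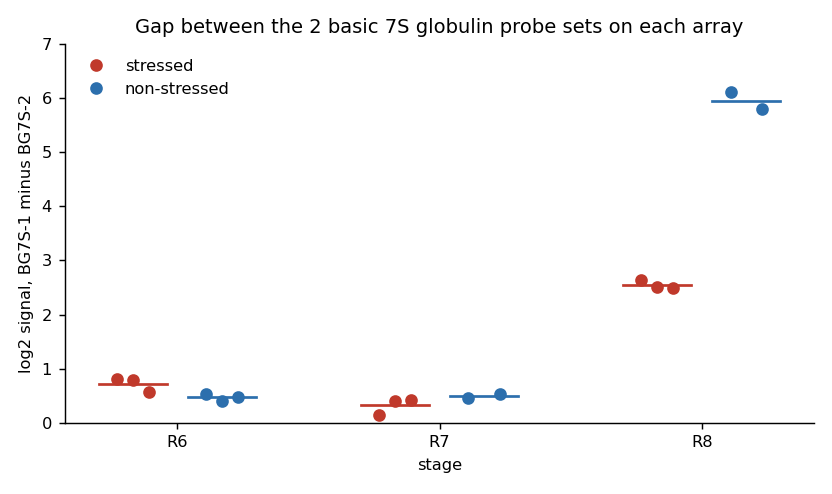
Log2 signal of BG7S-1 minus that of BG7S-2 on each array (y axis) by stage, with stressed seeds in red, non-stressed seeds in blue and short lines for group means. The gap lies between 0.15 and 0.81 on all R6 and R7 arrays, and at 2.49 to 2.64 in stressed and 5.80 to 6.11 in non-stressed R8 seeds.

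Over the 16 arrays, which share their stages and environments, the members resembled each other to different degrees. BG7S-2 and GM2S-1 had the highest Pearson r among the 10 pairs, 0.946, and CG-1 and BG7S-2 the lowest, 0.532. BG7S-1 followed CG-BETA-1 (0.849) and GM2S-1 (0.815) more closely than its paralogue BG7S-2 (0.749). These values describe the arrays and were not tested.

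Among 692 other named genes, those most like BG7S-2 were BBI, a Bowman-Birk protease inhibitor (r = 0.992), ADH2, an alcohol dehydrogenase (0.984), and D-II, a Bowman-Birk type isoinhibitor (0.969). The same 3 genes were most like GM2S-1, with D-II first (0.989), then ADH2 (0.977) and BBI (0.973). CG-BETA-1 was most like KTI1, a Kunitz trypsin inhibitor (0.988), LOX2, a lipoxygenase (0.956), and P34, a seed vacuolar protein and allergen (0.946). BG7S-1 was most like the glycinins GY2 (0.946) and GY1 (0.942) and the trypsin inhibitor KTI3 (0.928). CG-1 was most like PETC, a subunit of the photosynthetic cytochrome complex (0.970), A1 (0.958) and NOD33, a nodulin (0.957). All 16 arrays entered each of these correlations.

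The other storage proteins of the seed were read on the same arrays. Of 4 measured (GY1, GY2, GY5 and GY7, all glycinin genes), 2 were lower in stressed R7 seeds, GY1 (fell by 1.99) and GY5 (fell by 1.31). In that comparison 11.9% of all probe sets tested were called lower. All 4 were higher in stressed R8 seeds, GY5 by 3.88 (14.7-fold, adjusted p = 2.6e-07 by limma), GY1 by 2.52, GY2 by 1.35 and GY7 at least 2.24-fold, since GY7 was at background in non-stressed R8 seeds. Among all probe sets tested 6.01% were called higher at R8. The median difference of the 4 glycinin genes at R8 was 2.22, beside 1.50 for the 5 genes and -0.03 for all probe sets tested. At R6 GY7 alone was called, higher by 1.07 in stressed seeds, where 7.54% of all probe sets tested were called higher. The median of the 4 at R6 was 0.03, the same as for all probe sets tested. GY1, GY2 and GY5 had R6 means of 11.83 to 13.18, at or near the array maximum, where a difference can go unseen. GY1 and GY2 also stood near it in non-stressed R7 seeds (12.76 and 11.50) and in stressed R8 seeds (12.91 and 11.53). Their stress differences at those stages may be understated.

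Other abundant seed proteins gave both kinds of pattern. Of 12 measured, 5 were lower and 1 higher in stressed R7 seeds, where 11.9% and 6.62% of all probe sets tested were called so. In stressed R8 seeds 6 were higher and 1 lower, where 6.01% and 2.50% of all probe sets tested were called so. At R6 0 were called, where 14.9% of all probe sets tested were called in either direction. Among them KTI3, BBI, D-II, P34 and PM30 had R6 means of 12.04 to 12.53, near the array maximum, where a difference can go unseen. At R7 LOX2 fell by 2.68, KTI3 fell by 2.47, KTI1 fell by 2.26 and P34 fell by 1.82, and at R8 BBI was higher by 4.37, D-II by 3.45, KTI3 by 3.25 and LOC100787186, listed with the synonym of a sucrose binding protein, by 2.96. KTI1, at 0.32, and LOX2, at -0.07, were not called at R8, as CG-BETA-1 was not. LOX3, SBP2 and PM30, a seed maturation protein, had differences of -0.16 to -0.03 at R7 and R8 and were not called. The means of PM30 (12.79 to 13.01) and LOX3 (11.88 to 12.05) at these stages were at or near the array maximum, where a difference can go unseen. The median of the 12 was -0.59 at R7 and 0.74 at R8, beside -0.05 and -0.03 for all probe sets tested.

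**Figure D5:**
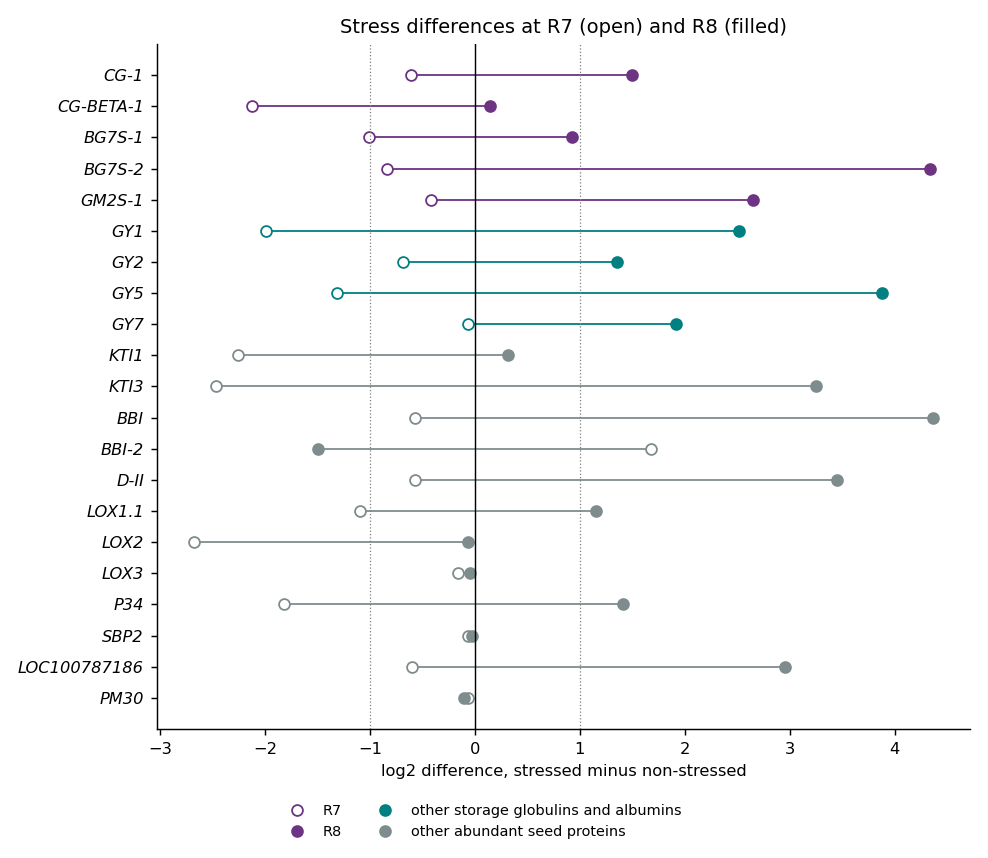
Log2 difference between stressed and non-stressed seeds (x axis) at R7 (open circles) and R8 (filled circles) for the 5 genes in purple, the 4 other storage protein genes in green and 12 other abundant seed protein genes in grey. Dotted lines mark a 2-fold difference, and all 5 genes in purple, all 4 in green and 8 of 12 in grey lie on opposite sides of 0 at the 2 stages. Some values lie near 0 (GY7 at R7, -0.07, and CG-BETA-1 at R8, 0.14), and BBI-2 goes from higher to lower. Not drawn, 4 of 4 seed coat, 3 of 3 embryo and 1 of 1 leaf markers also changed sides. So did 3 of 4 regulators and 1 of 4 folding, sorting and cleavage genes. The share over all probe sets was not counted.

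Genes that handle or control storage proteins were read on the same arrays. Of 4 measured genes for folding, sorting and cleavage, 2 were lower in stressed R6 seeds, where 7.34% of all probe sets tested were called lower, BIP4, an endoplasmic reticulum chaperone (fell by 1.98, adjusted p = 3.4e-07 by limma), and LOC100170705, listed with the synonym of a protein disulfide isomerase (fell by 1.40). In stressed R7 seeds, where 6.62% of all probe sets tested were called higher and 11.9% lower, VPE2, a vacuolar processing enzyme that cleaves storage protein precursors, was higher by 1.52 and PDIL-2, a protein disulfide isomerase, fell by 1.13. VPE2 was also higher in stressed R8 seeds, by 1.12, with low means of 2.75 in stressed and 1.63 in non-stressed seeds. Of 4 measured regulators of seed filling (LEC1-A, BZIP70, WRI1B and MYB73) 0 were called under stress at any stage by limma. MYB73 was just under the 2-fold limit at R7 (1.99-fold lower in stressed seeds, adjusted p = 0.0235 by limma). At R8 all 4 had both means at or below the background limit, and LEC1-A and WRI1B did so at R7 too, so that the absence of calls at R8, and of these 2 at R7, says nothing about a difference.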

How the data were processed

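RNA from whole seeds was hybridized with 1 array per sample, and 16 arrays were analysed where the methods state 18. The deposited values are log2 signals with 1 value per probe set, which the authors made by RMA per the labels' processing notes and through ArrayAnalysis.org per the methods, with versions and parameters not given in the sources used here. They ran from -0.83 to 13.28 and were used as deposited. RMA removes background and forces the arrays to a common distribution, so folds from low signals depend on the background step and a shift of all transcripts is not seen. Sample sizes differ between the labels (at least 50 seeds) and the methods. No depth applies to arrays, and 2 or 3 arrays per group limit the precision.

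Gene names came from the platform's annotation table, and each gene was represented by its probe set with the highest mean over 16 arrays. A model with 1 mean per group was fitted with limma (version 3.58.1, R 4.3.3) over 11 arrays for R6 and R8 and over 16 arrays for any comparison with R7, since the study went on with R6 and R8 only. P-values are two-sided and adjusted over 19194 probe sets, and standard errors and 95% intervals are those of the fit. The fit was tested on simulated data. The genes named are the 5 members, the 3 named genes most like each, and up to 4 called members per list and comparison by size, with uncalled ones named beside them where a sentence turns on them. The members, lists and rules were chosen with earlier results of these data known. Lists matched by symbol gave 4 of 17 other storage proteins, 12 of 17 other abundant seed proteins, 4 of 31 genes for folding, sorting and cleavage, 4 of 28 regulators, 5 of 7 seed coat markers with a probe set (4 passing the filter), 3 of 7 embryo markers and 1 of 7 leaf markers. The leaf marker, CAB3, fell by 1.67 in stressed R6 seeds and was not called at R7 or R8. P34 is in both the embryo list and the seed protein list. The alternatives were other signal filters, other organisms' probe sets included, further normalizations, other arrays in the fit, other variance models, the mean of a gene's probe sets, a replicate block, and each array left out. No sequence was printed and no coordinates are given, since no build is named for the array.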

Additional observations from a re-analysis of the deposited data

Results flagged for a closer look

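The results below were singled out because the stress response of a gene differed between stages by a test of the difference itself (limma, log2 scale). Between R8 and R6 the difference was 4.50 for BG7S-2, 2.65 for GM2S-1 and 1.98 for CG-1. Between R7 and R6 it was -1.98 for CG-BETA-1 and -1.10 for BG7S-1. Between R8 and R7 it was 5.18 for BG7S-2, 3.07 for GM2S-1, 2.26 for CG-BETA-1, 2.11 for CG-1 and 1.94 for BG7S-1. No group had more than 3 arrays, so no array was tested for standing apart from its group in these genes.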

How the results depend on the processing

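Of 60 results of single genes 43 kept direction and call under every alternative tried. Over all 1520 alternatives of single genes 1492 did so, 10 lost a call, 9 gained one and 9 changed sign. The changes of sign were all in differences that were not called. GM2S-1 at R6 under stress became -0.03 and -0.01 without non-stressed or stressed R6 replicate 2, and CG-BETA-1 became -0.16 at R8 and -0.02 in the R8 against R6 response without non-stressed R8 replicate 2. With each array left out these ran from -0.03 to 0.03, from -0.16 to 0.44 and from -0.02 to 0.58. CG-1 in the R7 against R6 response became 0.04 with a further quantile normalization, and 0.28, 0.04, 0.05 and 0.02 without non-stressed R7 replicate 2, stressed R6 replicate 1, stressed R6 replicate 2 and stressed R7 replicate 2, and -0.55 at the lowest with 1 array left out. With array medians set equal 1 gene was called under stress at R7 and 1 in the R7 against R6 response. With the mean of a gene's probe sets 2 were called between R7 and R6 in non-stressed seeds and 1 between R8 and R7 in stressed seeds. With each array left out in turn the counts ran from 1 to 2 under stress at R7, from 1 to 2 in the R7 against R6 response and from 1 to 2 between R7 and R6 in non-stressed seeds. The causes were not tested, apart from the mean of the probe sets of CG-1, which takes in a set at background.

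The replicate numbers were not taken as pairs, since the correlations of same-numbered arrays ran from -0.217 to 0.365 and 1 of 3 stressed R6 arrays correlated best with its own number. With the replicate block 0 of 60 calls changed, and BG7S-2 at R8 was 4.31. Signals near background (CG-1 at R7 and R8) and near the array maximum (4 genes at R6, and BG7S-1, BG7S-2 and CG-BETA-1 in non-stressed R7 and BG7S-1 in stressed R8 seeds) limit what a difference can show.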
